A study of Mus musculus with 2 samples.

Results

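The 10 genes described here encode the replacement histone H3.3 (H3f3a and H3f3b) and the proteins that carry histone H3 to DNA (Hira, Cabin1, Daxx, Asf1a, Asf1b, Nasp, Chaf1a and Chaf1b). They were taken by name from 21883 protein-coding mouse genes, by their role in H3 supply and placement. No peak value enters this rule, though earlier results of these data were known when the genes were chosen. All 10 symbols were found in the RefSeq gene table of build GRCm38.p6 (mm10), and every coordinate below is in that build. For each gene, peaks were collected whose summit, the position of highest signal, lay in the gene body or within 10 kb of either end. This stretch is called the gene window.

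The peaks came from chromatin immunoprecipitation and sequencing (ChIP-seq). Heads of E10.5 mouse embryos, an age at which the eye takes shape, had been snap-frozen, and the antibody bound green fluorescent protein (GFP). The series concerns functions of histone H3.2 in the eye. Its 2 libraries carry the same tissue and antibody labels and form 1 group, called here library 1 and library 2. The labels name neither the protein that carried GFP, nor strain, sex, litter or pooling, and they mark neither library as a control. A ChIP peak list holds no expression values, so the tissue could not be checked against its marker genes.

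Histone H3 comes in forms that differ in when they are placed into chromatin. H3.1 and H3.2 are made in S phase and are placed behind the replication fork by chromatin assembly factor 1 (CAF-1), whose large and middle subunits are encoded by Chaf1a and Chaf1b. H3.3 is made throughout the cell cycle from H3f3a and H3f3b. It is placed at active genes and regulatory regions by the HIRA complex, to which CABIN1 belongs, and at repeats and telomeres by DAXX with its partner ATRX. ASF1A and ASF1B hand H3-H4 dimers to these assembly factors, and NASP protects the soluble pool of H3.

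The lists differed greatly in length. Library 1 held 584724 peaks and library 2 held 348, of which 127 lay on chromosomes 1 to 19, X and Y. The genes below are therefore described from library 1, and its densities have no replicate. Intervals are 95% exact intervals and cover counting error only. Peaks in neighbouring positions are not independent. No test between conditions was possible with 1 group, and no p-value is given.

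All 10 genes had library 1 summits in their window, 245 in all. This count is near the background, since 94.8% of protein-coding genes had at least 1. With a stricter threshold, a −log10 q of at least 5, 9 of 10 genes kept a summit, against 88.2% of all genes. In the gene body alone, all 10 genes had a summit, against 85.7%. No gene had a library 2 summit in its window, where the share over all genes was 0.187%. A count of 0 of 10 therefore says nothing about these genes.

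What set the genes apart from each other was the density of summits per kb of window. It ran from 0.0840 in Nasp to 0.846 in Cabin1. The median over the 10 genes was 0.327 summits per kb, and the median over all protein-coding genes was 0.326. All 10 genes lie on autosomes, where the median over protein-coding genes was 0.352. The near-equal value against all protein-coding genes also depended on the setting. The median of the 10 genes was 0.414 times that of all genes with a −log10 q of at least 5, and 1.51 times with 20 kb beyond either end. The interquartile range of all genes was 0.134 to 0.590. Nasp was the gene below this range, and Chaf1b, Daxx and Cabin1 were above it. No pair of genes next to each other in this order differed beyond counting error. The 9 ratios between neighbours ran from 1.01 to 1.85, and every interval included 1. The order was set by the same densities, so neighbours differ least, and these ratios do not show that the genes are alike.

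**Figure D1:**
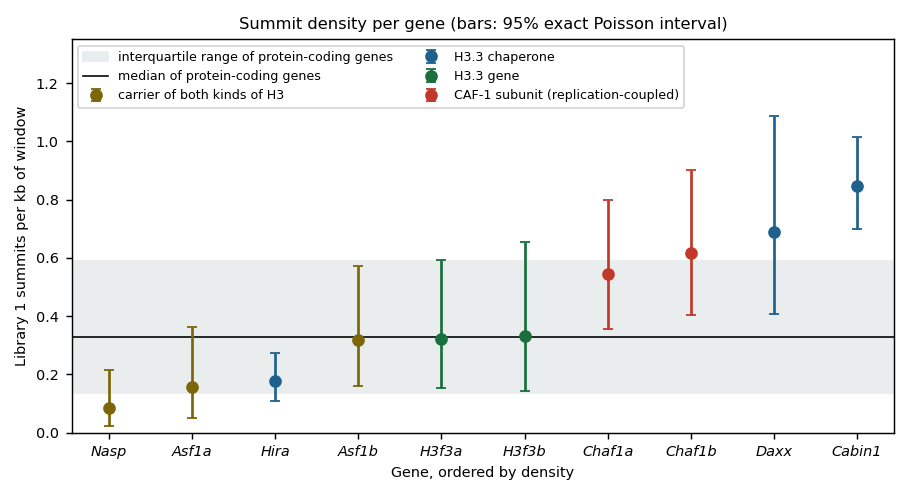
Library 1 summits per kb of gene window (vertical axis) for each of the 10 genes (horizontal axis, ordered by density), with 95% exact Poisson intervals and colours for the role of the gene. The black line is the median of all protein-coding genes (0.326) and the grey band their interquartile range. Nasp lies lowest at 0.0840 and Cabin1 highest at 0.846, and the 3 H3.3 chaperone genes are spread over most of that range.

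The H3.3 genes lay in the middle of the order. H3f3a (chr1:180802560-180813605) had 10 summits in a window of 31.0 kb, or 0.322 per kb (0.155 to 0.592). H3f3b (chr11:116021961-116026039) had 8 in 24.1 kb, or 0.332 per kb (0.143 to 0.655). The genes encode the same protein and differed in density by a factor of 1.03 (0.354 to 2.90). In H3f3a, 3 of the summits were in the gene body, and in H3f3b 1 was, while 3 others of H3f3b lay inside the neighbour Unk. Both H3.3 genes lay in peak-rich surroundings, and their windows were less dense. The 1 Mb around H3f3a held 0.530 summits per kb and that around H3f3b 0.751, the highest of the 10 genes. The window densities were 0.608 and 0.442 of these values. For H3f3a the difference was within counting error, since its interval includes 0.530. The interval of H3f3b lay below 0.751.

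The peaks of the H3.3 genes had a median fold of 3.50, against 3.90 for all library 1 peaks. Chaf1a (3.34) and Daxx (3.46) had lower median folds, so this was not particular to the H3.3 genes. The deposited fold enrichment over background ran from 2.47 to 4.36 in H3f3a and from 2.96 to 4.13 in H3f3b. Of 18 summits, 2 (11.1%, 1.38 to 34.7) passed the stricter threshold, against 41.0% of all library 1 peaks, a value outside that interval. The share was also low in Daxx (5.56%) and Asf1a (0 of 5 summits). Both of these summits lay outside the gene bodies, at −3.53 kb from the start of H3f3a and at 6.43 kb from the start of H3f3b. RefSeq lists the pseudogene copies H3f3a-ps1, H3f3a-ps2 and Nasp-ps1. How reads that match more than 1 place were handled is not given in the sources used here, so values inside H3f3a and Nasp are uncertain.

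Chaf1a and Chaf1b, the CAF-1 genes, resembled each other in the number of summits. Chaf1a (chr17:56040416-56068026) had 26 summits in 47.6 kb, or 0.546 per kb (0.357 to 0.800). Chaf1b (chr16:93883900-93906115) also had 26, in 42.2 kb, or 0.616 per kb (0.402 to 0.902). Their density ratio was 0.887 (0.495 to 1.59). Each window was about as dense as its surroundings, at 0.979 of the density of the 1 Mb around Chaf1a and 1.02 of that around Chaf1b.

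The CAF-1 genes differed in where and how strong these peaks were. In Chaf1b, 14 of 26 summits passed the stricter threshold (53.9%, 33.4 to 73.4), and in Chaf1a 5 of 26 did (19.2%, 6.56 to 39.4). The intervals overlap. The strongest Chaf1b peak, chr16:93898833-93899158, lay 15.1 kb into the gene. Its fold was 6.19, and its summit rested on a pileup of 22 overlapping reads (13.8 to 33.3). The strongest Chaf1a peak, chr17:56051956-56052078, lay 11.6 kb into the gene, at a fold of 5.39 from 19 reads (11.4 to 29.7). Of the Chaf1a summits, 11 lay inside the neighbouring genes Sh3gl1 and Ubxn6. In Chaf1b, 1 lay inside a neighbour, Morc3.

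The H3.3 chaperone genes did not form a group by density. Hira (chr16:18876750-18970309), which encodes the subunit that its complex is named after, had 20 summits in 114 kb, or 0.176 per kb (0.108 to 0.272). Cabin1 (chr10:75646110-75764357), a subunit of the same complex that also binds calcineurin, had 117 summits in 138 kb, or 0.846 per kb (0.700 to 1.01). Neighbouring genes held 12 of the Cabin1 summits (Susd2 and Ddt) and 1 of the Hira summits (Mrpl40). Cabin1 and Hira thus lay at opposite sides of the all-gene median, and their densities differed by a factor of 4.81 (2.97 to 8.16). Of all protein-coding genes, 92.6% had a lower density than Cabin1 and 31.7% a lower density than Hira. These are the longest of the 10 genes, at 118 kb and 93.6 kb.

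The difference ran along most of the gene body. Cut into full stretches of 10 kb from the start, the body of Cabin1 gave 11 stretches with 5 to 12 summits each (median 8). The body of Hira gave 9 stretches with 0 to 4 summits (median 1). Every full stretch of Cabin1 held more summits than any full stretch of Hira. The shorter remainders at the gene ends were left out, and that of Hira held the summits at 92.1 and 93.0 kb from the start. The longest stretch without a summit was 15.0 kb in Hira and 5.77 kb in Cabin1. Peaks covered 24.7% of the Cabin1 window and 4.32% of the Hira window.

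Strength did not follow density in this pair. The strongest peak of all 10 genes was in Hira, at chr16:18949015-18949567, 72.5 kb from the start. Its fold was 7.19 from 27 reads (17.8 to 39.3). The strongest Cabin1 peaks reached a fold of 6.73, among them chr10:75739365-75740003. The median fold was 3.73 in Hira and 3.67 in Cabin1, and the stricter threshold was passed by 35.0% (15.4 to 59.2) and 40.2% (31.2 to 49.6) of summits. Daxx (chr17:33909404-33915590), which binds H3.3 with ATRX, had 18 summits in 26.2 kb, or 0.687 per kb (0.407 to 1.09). Of these, 12 lay inside the neighbouring genes Smim40, Zbtb22 and Tapbp, 3 in Daxx itself, and 1 (5.56%, 0.141 to 27.3) passed the stricter threshold. That peak, chr17:33924462-33924664 inside Tapbp, had a fold of 5.39, the highest in the window.

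**Figure D2:**
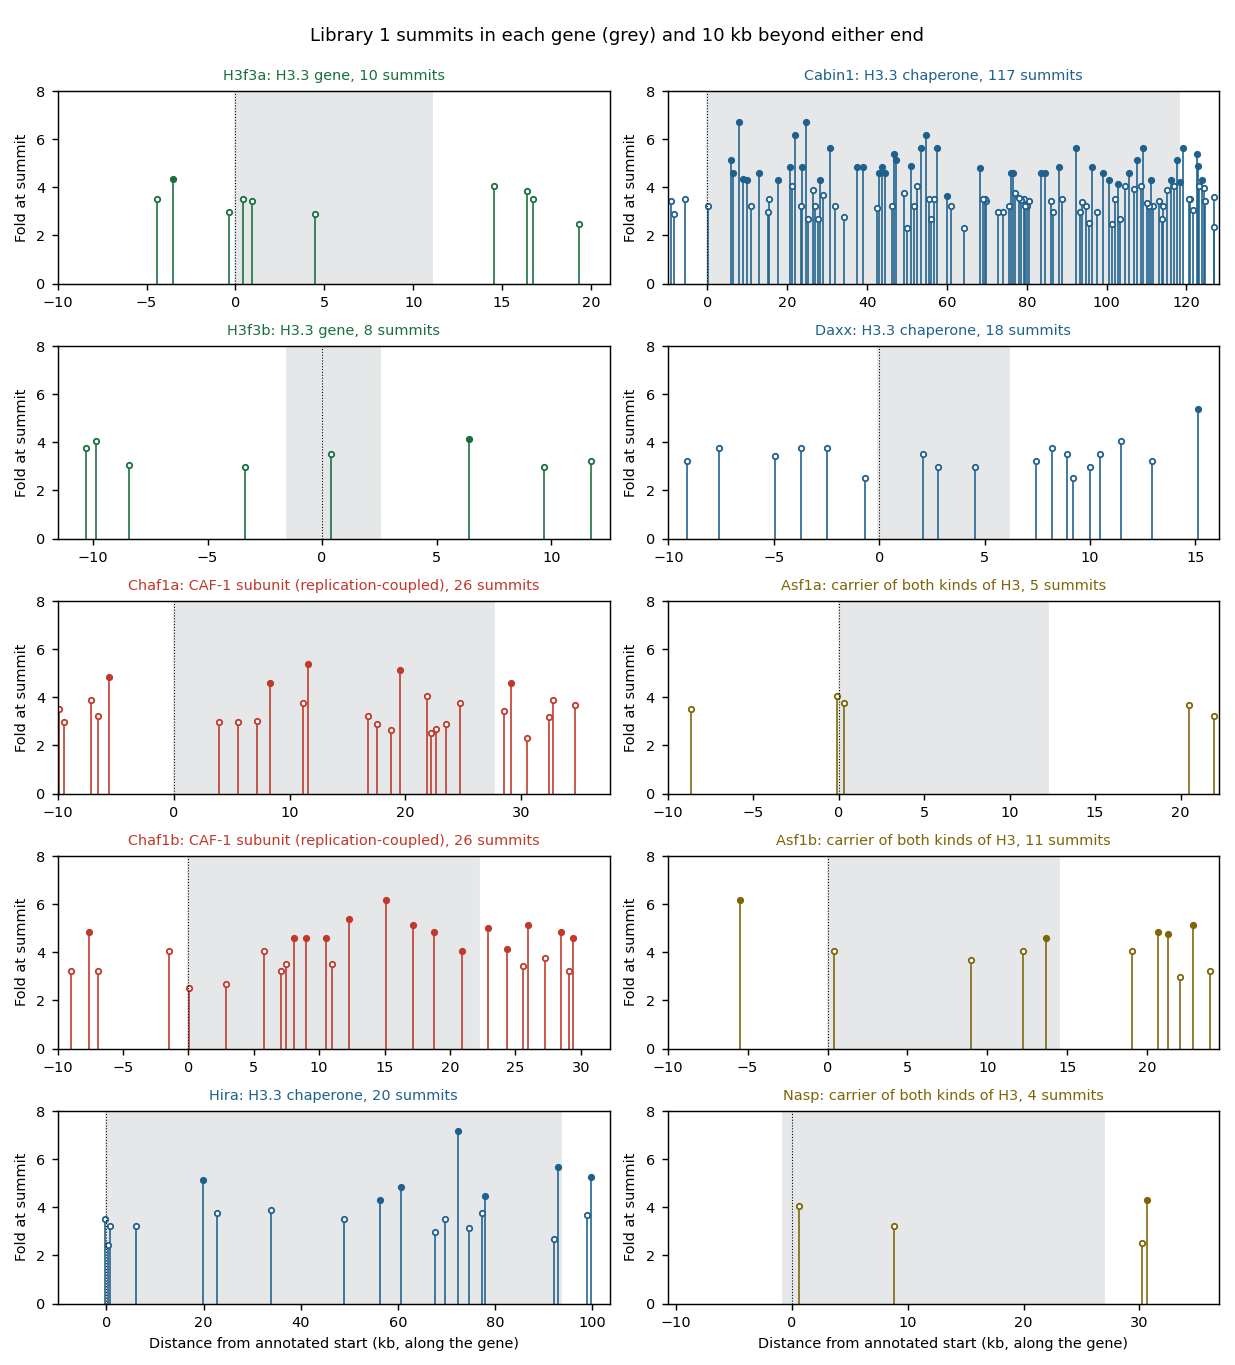
Library 1 summits along each gene: the horizontal axis is the distance from the annotated start in kb, in the direction of transcription, and the vertical axis is the deposited fold at the summit. Grey marks the gene body, the dotted line the start, filled points a −log10 q of at least 5 and open points weaker peaks. Cabin1 holds 117 summits and Hira 20 over gene bodies of 118 and 93.6 kb, and no point within 1 kb of a start is filled.

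Placed side by side, the replication-coupled and the H3.3 chaperone genes had nearly the same summed density. Chaf1a and Chaf1b together had 52 summits, or 0.579 per kb (0.432 to 0.759). Hira, Cabin1 and Daxx together had 155, or 0.558 per kb (0.473 to 0.653). The ratio was 1.04 (0.743 to 1.43), and the share of summits past the stricter threshold was 36.5% (23.6 to 51.0) and 35.5% (28.0 to 43.6). Peaks covered 17.0% of the CAF-1 windows and 15.9% of the H3.3 chaperone windows.

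This near-equal value rested on opposite genes. Without Cabin1, which gave 117 of the 155 summits, the ratio was 2.13 (1.37 to 3.33), higher at the CAF-1 genes. Without Hira it was 0.705 (0.502 to 0.978), lower at the CAF-1 genes. Against single genes, the CAF-1 density was 3.29 times that of Hira (1.93 to 5.81), 0.684 times that of Cabin1 (0.484 to 0.956) and 0.842 times that of Daxx (0.485 to 1.53). No direction can be given for the 2 classes of genes from these data.

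**Figure D3:**
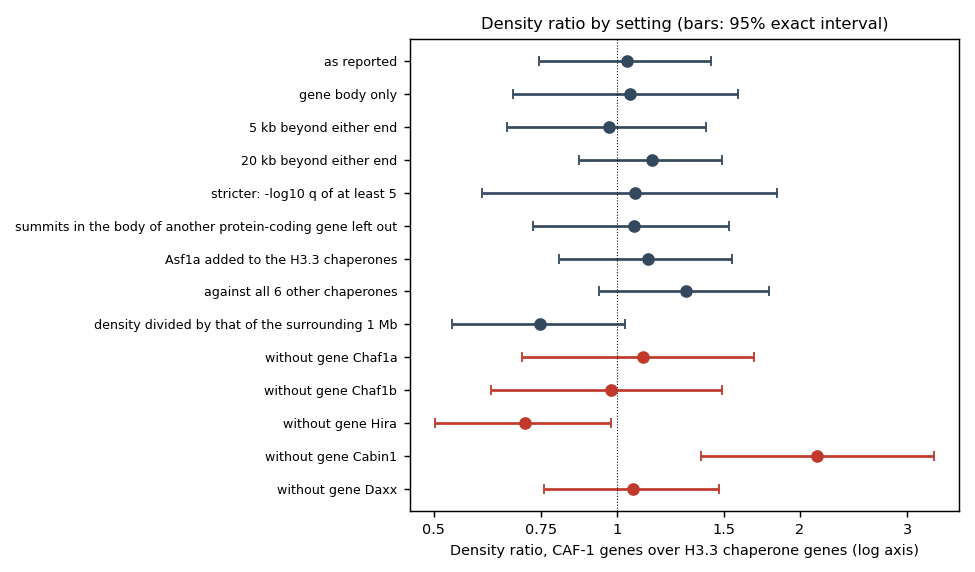
Ratio of summit density in the CAF-1 genes to that in the H3.3 chaperone genes (horizontal log axis) for each setting (vertical axis), with 95% exact intervals. Red points leave out 1 gene. The ratio as reported is 1.04, and the settings without Hira (0.705) and without Cabin1 (2.13) have intervals on opposite sides of 1.

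Of the carriers that serve both kinds of H3, Nasp and Asf1a were the least dense of the 10 genes, and Asf1b was close to the all-gene median. Nasp (chr4:116601052-116628676) had 4 summits in 47.6 kb, or 0.0840 per kb (0.0229 to 0.215), and 2 of them lay beyond its end in the neighbour Ccdc17. The peak with the highest fold, 4.29, was 1 of these, at chr4:116597205-116597331. A stretch of 21.4 kb without a summit, the longest in the 10 genes, covered most of its body. The CAF-1 genes together were 6.89 times as dense as Nasp (2.54 to 26.2). Its surroundings were poor as well, at 0.244 summits per kb, yet the window reached 0.344 of that value.

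Asf1a and Asf1b encode closely related proteins, of which ASF1A is best known with HIRA and ASF1B with dividing cells. Asf1a (chr10:53596961-53609225) had 5 summits in 32.3 kb, or 0.155 per kb (0.0503 to 0.362), and lies wholly inside the gene Mcm9. Its surroundings held 0.140 summits per kb, the lowest of the 10 genes. Asf1b (chr8:83955694-83970195) had 11 summits in 34.5 kb, or 0.319 per kb (0.159 to 0.571), and 6 of these were in the neighbour Prkaca. The ratio of Asf1b to Asf1a was 2.06 (0.659 to 7.55), which is within counting error. None of the Asf1a summits passed the stricter threshold, and 5 of the 11 in Asf1b did. The strongest, chr8:83949990-83950362, lay at −5.49 kb from the Asf1b start and had a fold of 6.19.

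Across the 10 genes, 6 windows were less dense than the surrounding 1 Mb, and the median ratio of window to surroundings was 0.793. Over 21775 protein-coding genes with peaks nearby, 46.9% of windows were less dense and the median ratio was 1.04. The surrounding 1 Mb was centred on the gene and includes its window. Cabin1 stood at 1.73 times and Daxx at 1.52 times the density of their surroundings. For Daxx this was within counting error, since its interval (0.407 to 1.09) includes 0.453, the value of its surroundings. The interval of Cabin1 (0.700 to 1.01) lay above its 0.488. Hira (0.539) and Asf1b (0.545) were below. Divided by the surroundings, the CAF-1 genes were at 0.749 of the H3.3 chaperones (0.536 to 1.03).

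**Figure D4:**
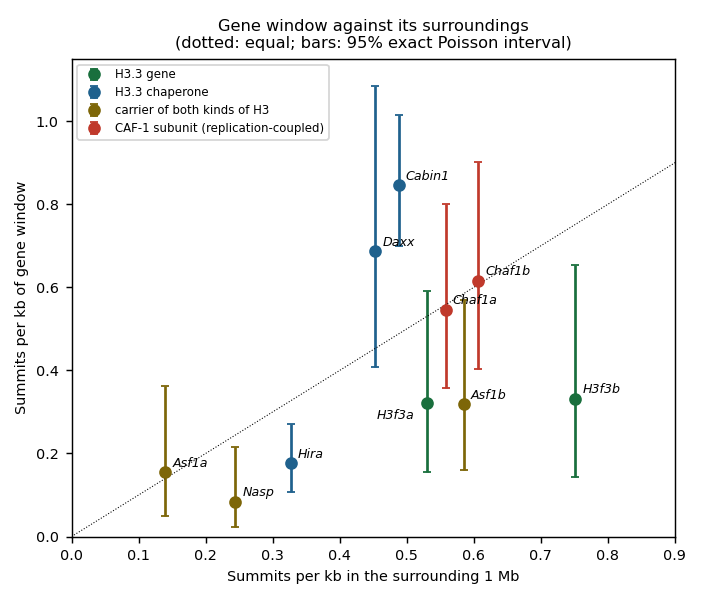
Summits per kb of gene window (vertical axis, with 95% exact Poisson intervals) against summits per kb in the surrounding 1 Mb (horizontal axis) for the 10 genes. The dotted line marks equal densities. Cabin1 and Daxx lie above it, Chaf1a and Chaf1b close to it, and H3f3b is farthest below it with 0.332 against 0.751.

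Most of the genes had a peak at the transcription start, and each of these peaks was below the stricter threshold. Of the 10 genes, 9 (55.5 to 99.8%) had a library 1 summit within 1 kb of an annotated start. The share was 67.6% over the 17491 protein-coding genes with a start in the promoter table, a value inside that interval. There were 14 such summits, 3 each at H3f3a and Hira, 2 at Asf1a and 1 each at H3f3b, Daxx, Asf1b, Chaf1b, Cabin1 and Nasp. Their folds ran from 2.42, at Hira, to 4.04, at Asf1a, Asf1b and Nasp, and their pileups from 8 to 14 reads. None of the 14 passed the stricter threshold, which allows a share of up to 21.4% (3 counts of the total) or 23.2% (exact interval). Of the other 231 summits of these genes 35.5% (29.3 to 42.0) passed it. Over all genes, 28.2% (27.5 to 28.8) of the 18944 summits within 1 kb of a start passed, against 41.0% of all peaks. Counted by gene, 0 of 10 had a start peak of that strength, against 26.2% of all genes. This count allows a share of up to 30% by the limit of 3 counts, or 30.85% by the exact interval.

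The summits closest to a start were 40 bp inside Chaf1b, 73 bp inside Cabin1 and 97 bp before Asf1a. Chaf1a was the exception. Its nearest summit lay 3.90 kb inside the gene, and its longest stretch without a summit, 9.45 kb, ran across the start. The bases just before the start are shown for the genes whose peak reached into them and for Chaf1a, where none did. They are RefSeq sequences of GRCm38.p6, 5′ to 3′ on the strand of the gene, and capitals mark bases inside a library 1 peak.
Asf1a (chr10:53596711-53596960, plus strand): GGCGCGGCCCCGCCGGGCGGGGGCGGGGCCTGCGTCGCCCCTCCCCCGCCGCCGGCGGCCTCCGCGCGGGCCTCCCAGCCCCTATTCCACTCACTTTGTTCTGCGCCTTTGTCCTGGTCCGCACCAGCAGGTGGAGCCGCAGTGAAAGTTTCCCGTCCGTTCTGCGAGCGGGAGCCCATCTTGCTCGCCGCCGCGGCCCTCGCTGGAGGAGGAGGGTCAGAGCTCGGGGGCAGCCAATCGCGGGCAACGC
Cabin1 (chr10:75764358-75764607, minus strand): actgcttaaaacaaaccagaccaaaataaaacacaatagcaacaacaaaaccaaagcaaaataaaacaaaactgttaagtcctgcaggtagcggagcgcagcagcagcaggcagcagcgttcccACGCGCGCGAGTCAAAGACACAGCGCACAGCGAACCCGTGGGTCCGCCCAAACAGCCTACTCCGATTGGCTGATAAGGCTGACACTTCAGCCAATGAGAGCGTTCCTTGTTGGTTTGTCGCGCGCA
Hira (chr16:18876638-18876749, plus strand): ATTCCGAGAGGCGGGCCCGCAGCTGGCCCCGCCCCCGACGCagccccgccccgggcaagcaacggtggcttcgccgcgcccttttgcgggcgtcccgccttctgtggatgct
Chaf1a (chr17:56040166-56040415, plus strand): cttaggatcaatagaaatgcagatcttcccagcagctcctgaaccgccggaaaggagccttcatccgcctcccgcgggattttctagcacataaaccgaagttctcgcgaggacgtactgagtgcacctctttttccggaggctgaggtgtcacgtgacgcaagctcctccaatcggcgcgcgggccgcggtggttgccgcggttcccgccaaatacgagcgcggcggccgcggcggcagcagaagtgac

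All 250 bases before the Asf1a start lay in its peak, and 126 of 250 did at Cabin1. At Hira the peak covered 179 of 250 bases. The stretch shown is the 112 bases between Hira and its neighbour Mrpl40, of which 41 lay in the peak. None of the 250 bases did at Chaf1a, nor at the other 6 genes. The covered promoters did not share their base composition. GC content was 74.4% at Asf1a, 72.4% at Hira and 51.2% at Cabin1, and it ran from 48.4% (Nasp) to 77.2% (H3f3a) over the 10 genes. The median over all promoters was 52.4%.

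The promoters were also searched on both strands for the motif CCAAT and for TTTGGCGC and TTTCCCGC, forms of the site of E2F, a regulator of S-phase genes. CCAAT was found before the start of 8 of 10 genes (44.4 to 97.5%), against 33.8% of 32851 promoters of the same length. It occurred 4 times each at H3f3b and Asf1b and was not found at Hira or Chaf1b. In Asf1a it began at base −17 from the start, inside the peak, and in Chaf1a at base −81. Neither of these exact E2F forms was found in the 10 promoters, and their shares over all promoters were 0.417% and 0.895%. At shares this low, their absence says nothing about E2F sites in these genes. Other forms of the site were not searched. A match is a description of the letters only.

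Other genes of histone H3 handling also spread widely in density. Of 21 genes, 20 had a library 1 summit in their window, again near the 94.8% of all genes, 19 had one past the stricter threshold and 0 had a library 2 summit. Their median density was 0.207 per kb, and 10 of 21 were above the all-gene median. All their windows together held 0.256 summits per kb (0.227 to 0.287). For the 10 genes described here this value was 0.456 (0.401 to 0.517), with 117 of the 245 summits from Cabin1. The densest was Tonsl, which reads new histones behind the fork (0.920 per kb, 0.625 to 1.31). Next were Ipo4, an importer of histones (0.853), and Mcm2, a helicase subunit that binds H3-H4 (0.651). The lowest were Rbbp7 with 0 summits (3 counts would be 0.0775 per kb) and Atrx, the partner of Daxx, with 1 summit in 152 kb (0.00659 per kb, 0.000167 to 0.0367). Both lie on the X chromosome, where the median density over genes was 0.0235 per kb, against 0.352 on the autosomes. Their windows, 152 kb for Atrx and 38.7 kb for Rbbp7, count in the 0.256 per kb above and lower it. The HIRA partners Ubn1 and Ubn2 had 0.338 and 0.152 per kb, and Pcna, the clamp that recruits CAF-1, had 2 summits, or 0.0837 per kb.

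The 12 replication-dependent H3 genes, compared after their values were seen, stood lower. Of these, 6 had a summit in their window, against 94.8% of all protein-coding genes. These shares are not like for like, since the H3c windows were short, at 20.5 to 20.9 kb, and shorter windows catch fewer summits. The 12 windows overlap and merge into 6, so they are not separate observations. The merged windows held 12 summits in 189 kb, or 0.0637 per kb (0.0329 to 0.111). The density of their surroundings was not measured. The 10 H3.3 and chaperone genes had 0.456 per kb (0.401 to 0.517) on the same measure, with 117 of their 245 summits from Cabin1. The median over genes was 0.327 per kb for these 10 and 0.0244 for the H3c genes. No H3c gene was above the all-gene median. Near-identical copies among the H3c genes make values inside these genes uncertain, as inside H3f3a. Most of each H3c window lies outside the gene, in the 10 kb beyond either end.

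The nearest library 2 summit to any of the 10 genes was 132 kb beyond the end of Chaf1a, at chr17:56200008-56200089, with a fold of 35.2. For the other 9 genes the nearest library 2 summit on the chromosome was between 2486 kb (H3f3a) and 61880 kb (H3f3b) away.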

How the data were processed

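Anti-GFP ChIP-seq peak lists of 2 libraries from E10.5 mouse heads were used. MACS2 2.1.0, Bowtie 1.1.2, Trimmomatic 0.33 and bcl2fastq 2.17 are named in the submitters' processing notes with the builds mm10 and hg38, but no role, setting or control is. Each deposited narrowPeak list gives per peak a score (the −log10 q times 10, without decimals), the fold enrichment as a ratio, the −log10 p and −log10 q, and a summit offset. These values are the authors'. No read totals were given, so depth is not known directly. The summit pileup was solved from the deposited fold and −log10 p under a Poisson background, with a largest mismatch of 1.34e-05 on the −log10 scale.

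Summits were counted in gene windows (body and 10 kb beyond either end) of RefSeq genes on the 19 autosomes, X and Y. The promoter table gives strand and start for 79.9% of the protein-coding genes and for all 10 genes described. Densities have 95% exact Poisson intervals, shares Clopper-Pearson intervals, and ratios exact conditional intervals. PCR duplicates are not independent molecules, so these cover counting error only. Counting was tested on simulated peaks. All 10 genes are named. Of the H3 handling list those with the highest and lowest density are named, beside Ubn1, Ubn2, Pcna and Mcm2, named for their roles. For each gene, the peak with the highest fold was described, and the peaks within 1 kb of a start were given by count and range. The genes and lists were chosen with earlier results of these data known. Alternatives were other windows, a −log10 q of at least 5, peak overlap in place of summits, other class definitions, genes left out and other start windows. Python 3.11.15, scipy 1.17.1, pandas 2.3.3 and matplotlib 3.10.9 were used.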

Additional observations from a re-analysis of the deposited data

How the results depend on the processing

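Of 52 values recomputed under another setting, 39 kept their side or stayed within their interval and 13 moved. Some of the 39 could hardly have moved, so this count does not measure robustness. A wider window keeps every summit of a narrower one. The peak with the highest fold tends to pass a stricter threshold, and leaving out library 2 removes no peak from any window. The ratio of CAF-1 to H3.3 chaperone genes moved to 0.705 without Hira and to 2.13 without Cabin1, and stayed between 0.749 and 1.30 under the other settings that were run. The median density of the 10 genes, 0.327 per kb and 1.002 times the all-gene median, moved with the window. It was 0.274 per kb (0.737 times) in gene bodies, 0.273 (0.836 times) with 5 kb and 0.502 (1.51 times) with 20 kb. It was 0.0516 per kb (0.414 times) with a −log10 q of at least 5, and 1.31 times the median of all annotated genes. Start peaks fell from 9 genes to 0 at the stricter threshold. Leaving out 1 library gave 0 genes with a peak from library 2 alone and 10 from library 1 alone. No library 2 peak lay in any window, so the overlap rule could not change a value. Asf1a had no peak past the stricter threshold and gives no best fold there. No paired analysis was possible because both libraries belong to 1 group. Low pileups limit single peaks: at 14 reads, the interval runs from 7.65 to 23.5.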
